A study of Mus musculus with 2 samples.

Results

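The genes described here are 31 members of the sterol and fatty acid synthesis pathways, chosen by symbol from the 31017 gene symbols counted in 2 single-cell libraries of mouse CD8 T cells. They comprise 20 sterol genes, 7 fatty acid genes and 4 regulators. The sterol genes are the enzymes from acetyl-CoA to cholesterol together with Insig1 and Stard4, and the regulators are Srebf1, Srebf2, Scap and Insig2. They were chosen as pathway members, with earlier results of these data known. Of the 31, 29 had at least 100 unique molecular identifiers (UMIs, each standing for 1 captured RNA molecule) over both libraries, namely all 20 sterol genes, 5 of the 7 fatty acid genes and all 4 regulators. Fads2, a delta-6 desaturase gene, had 1 UMI in the old recipient library and 0 in the young donor library. Scd1, a stearoyl-CoA desaturase gene, had 0 UMIs in the old recipient library and 1 in the young donor library, so neither gene was compared, and a count of 0 allows up to 3 UMIs.

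The study placed young CD8 T cells into an aged host. Total splenic CD8 T cells of 3-month-old CD45.1 C57BL/6J mice, enriched with a kit to a purity above 95% by the labels, were transferred into CD45.2 C57BL/6J mice aged 24 months. From spleens 1 month later, at a host age of 25 months, CD45.2+CD3e+CD8a+ cells gave the old recipient library and CD45.1+CD3e+CD8a+ cells gave the young donor library. Both groups were of wt genotype, differed by label in the CD45 variant, and had spent the last month in an aged host, while the donor cells alone had been isolated and transferred. Each group is 1 library, and the labels do not say whether it came from 1 mouse or a pool, nor whether both populations came from the same recipient. Effects of the group and of its library cannot be told apart, so no test was made, and the 95% intervals in brackets cover counting error alone.

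Cholesterol is built from acetyl-CoA through mevalonate, isoprenoid diphosphates, squalene and lanosterol, and fatty acids are built from the same precursor by carboxylation and chain elongation. The genes of both routes are targets of the sterol regulatory element binding proteins (SREBPs), transcription factors made as membrane precursors that the escort protein SCAP carries from the endoplasmic reticulum to the Golgi for cleavage when membrane sterol is low. INSIG proteins hold SCAP back when sterol is plentiful, and lymphocytes are known to turn the programme on when they are activated and grow.

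The promoters show what the sterol genes have in common at the sequence level. RefSeq promoter windows on GRCm38.p6 were found for 24 of the 31 members, 16 of them sterol genes, and the 250 bases before each annotated start were searched on both strands for CCAAT, the site bound by NF-Y, a factor known to act with SREBPs. It was present in at least 1 window of 15 of the 16 sterol genes (93.8%), against 41.0% of the 8058 genes with at least 100 UMIs and a window, and 33.8% of all 32851 windows. Acat2 was the exception, and Dhcr7 held the motif only in the third of its 3 windows. That window and the one of Tm7sf2 lie inside the annotated gene. The windows of Cyp51, Idi1, Msmo1, Insig1, Lss, Hsd17b7, Nsdhl, Mvk and Tm7sf2 overlap annotated exons, so not all are sequence before a gene. Among the other members it was present in 1 of 4 fatty acid genes, Fasn, and in 3 of 4 regulators. The GC box GGGCGG was also present in 15 of the 16 sterol genes, against 64.7% of the genes with at least 100 UMIs. The SREBP site TCACNCCAC, searched in the same way, was present in 1 of the 16, Hmgcs1, against 101 of those 8058 genes, and other spellings of the site were not searched. The windows shown were taken from those that overlap no annotated exon. They are those of a pair of mevalonate genes, a pair of late sterol genes and Fasn, the 1 fatty acid gene with CCAAT. Each is written 5′ to 3′ along the gene's strand with CCAAT (read as ATTGG on the other strand) and TCACNCCAC in capitals. They are Hmgcs1 (chr13:119690101-119690350, plus strand), Mvd (chr8:122443423-122443672, minus strand), Ebp (chrX:8193513-8193762, minus strand), Sc5d (chr9:42264301-42264550, minus strand) and Fasn (chr11:120824548-120824797, minus strand).
Hmgcs1: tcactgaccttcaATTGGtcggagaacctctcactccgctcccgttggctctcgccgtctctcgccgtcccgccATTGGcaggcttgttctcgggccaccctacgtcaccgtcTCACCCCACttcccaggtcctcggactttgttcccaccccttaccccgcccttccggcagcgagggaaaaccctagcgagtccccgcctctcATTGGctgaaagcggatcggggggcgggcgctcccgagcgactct
Mvd: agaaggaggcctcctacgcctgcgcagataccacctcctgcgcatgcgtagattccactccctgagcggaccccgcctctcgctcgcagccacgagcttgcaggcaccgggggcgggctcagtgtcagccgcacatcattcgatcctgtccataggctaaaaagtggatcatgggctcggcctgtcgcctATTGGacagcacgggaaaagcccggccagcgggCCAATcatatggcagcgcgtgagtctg
Ebp: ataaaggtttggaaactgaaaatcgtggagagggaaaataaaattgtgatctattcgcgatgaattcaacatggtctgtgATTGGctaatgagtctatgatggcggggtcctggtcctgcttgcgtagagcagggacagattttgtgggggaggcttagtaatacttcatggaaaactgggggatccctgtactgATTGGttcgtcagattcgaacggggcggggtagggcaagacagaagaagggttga
Sc5d: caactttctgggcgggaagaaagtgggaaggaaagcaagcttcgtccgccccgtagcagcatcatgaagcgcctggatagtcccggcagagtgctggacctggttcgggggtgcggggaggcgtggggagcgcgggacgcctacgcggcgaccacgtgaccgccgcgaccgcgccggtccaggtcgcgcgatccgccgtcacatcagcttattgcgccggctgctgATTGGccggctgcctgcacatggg
Fasn: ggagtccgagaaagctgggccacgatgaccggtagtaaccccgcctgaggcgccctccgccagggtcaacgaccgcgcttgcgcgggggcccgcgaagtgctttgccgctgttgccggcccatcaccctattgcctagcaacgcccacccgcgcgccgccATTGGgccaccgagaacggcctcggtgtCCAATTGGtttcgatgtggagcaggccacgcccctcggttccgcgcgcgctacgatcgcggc
In Hmgcs1 the 3 CCAAT sites began 237, 176 and 45 bases before the start and the SREBP site 137 bases before it, between the second and the last of them. In Mvd the sites began 60 and 27 bases, in Ebp 170 and 55 bases and in Sc5d 24 bases before the start. In Fasn, 3 sites lay 90, 62 and 59 bases before it, and the last 2 of these overlap. A match describes the letters of the window and not a bound site.

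The old recipient library held 6174 barcodes and the young donor library 8588, of which 5366 and 7489 cells passed the filters, with medians of 6935 and 7807 UMIs per cell. Levels are given as CPM, the UMIs of a gene for every 1000000 UMIs of the cells they were summed over. A UMI counts a captured molecule once whatever its length, and orders of different genes by level describe captured RNA, since capture and mapping may differ between genes. The 5 CD8 T cell marker genes summed to 4262 CPM in old recipient cells and 4028 CPM in young donor cells. The B cell list summed to 180 and 159 CPM, nearly all of it Ighm and Cd79b, while Ms4a1 had 2 UMIs in the old recipient and 0 in the young donor. The dendritic cell list summed to 99.8 and 93.8 CPM, nearly all of it Cst3, with Siglech at 0 in both and Flt3 at 1 and 0 UMIs. Myeloid (2.71 and 3.35 CPM), erythroid (6.47 and 7.38 CPM), platelet (0.105 and 0.258 CPM) and CD4 T cell (2.53 and 0.843 CPM) lists were lower. The NK list (Ncr1, Klrb1c and Fcer1g) stood at 22.3 CPM in the old recipient and 2.61 CPM in the young donor, with 2 and 0 UMIs of Ncr1, the defining receptor gene. The libraries shared 105 barcodes.

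Over all cells, the sterol genes stood higher in old recipient cells than in young donor cells, and the fatty acid genes and regulators were close. The 20 sterol genes summed to 284 CPM in the old recipient and 242 CPM in the young donor, a log2 ratio of 0.23 [0.20, 0.27]. The 7 fatty acid genes summed to 85.7 and 81.7 CPM, a log2 ratio of 0.07 [0.00, 0.13], and the 4 regulators to 93.1 and 89.7 CPM, a log2 ratio of 0.05 [-0.01, 0.11]. A log2 ratio past 0.32 in either direction is the threshold for all counts between libraries and between gates. Past it, 4 of the 20 sterol genes were higher in the old recipient and none was lower, against 7.64% of all 10395 genes with at least 100 UMIs higher and 5.34% lower. Their median log2 ratio was 0.19, against 0.04 over all genes, and the intervals of 12 sterol genes lay above 0 and of none below.

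In the mevalonate steps, Hmgcs1 (ENSMUSG00000093930, chromosome 13, 119690379 to 119708260), which encodes the cytosolic HMG-CoA synthase at the entry to the pathway, had 16.5 CPM in the old recipient and 14.4 CPM in the young donor. Acat2, the acetoacetyl-CoA thiolase gene before it, had 15.3 and 14.4 CPM. The kinase genes Mvk (7.23 and 7.08 CPM) and Pmvk (11.9 and 10.5 CPM) and the decarboxylase gene Mvd (10.1 and 9.37 CPM) likewise stayed within the threshold, and so did Idi1, which isomerises isopentenyl diphosphate (7.60 and 6.31 CPM, log2 0.27 [0.04, 0.50]). Fdps (ENSMUSG00000059743, chromosome 3, 89093588 to 89101959), which makes farnesyl diphosphate, the branch point to sterols and to protein prenylation, had 35.8 CPM (1360 UMIs) in the old recipient and 27.8 CPM (1618 UMIs) in the young donor, a log2 ratio of 0.36 [0.26, 0.47]. It was the only gene of this stretch past the threshold.

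From squalene onward, Sqle (ENSMUSG00000022351, chromosome 15, 59315077 to 59331192), the squalene epoxidase gene of a rate-limiting step, had the largest library ratio of the 29 compared members. It stood at 6.68 CPM (254 UMIs) in the old recipient and 3.68 CPM (214 UMIs) in the young donor, a log2 ratio of 0.86 [0.59, 1.13] or 1.82-fold. Fdft1, the squalene synthase gene just before it, had 16.7 and 15.3 CPM, and Lss, which closes squalene epoxide to lanosterol, had 3.92 and 3.90 CPM. The genes of the steps after lanosterol did not pass the threshold. They were Cyp51 (9.42 and 7.82 CPM), Tm7sf2 (2.97 and 2.67 CPM), Msmo1 (15.1 and 12.8 CPM), Nsdhl (9.31 and 7.62 CPM), Hsd17b7 (3.10 and 2.85 CPM), Ebp (60.2 and 52.8 CPM), Sc5d (16.9 and 14.1 CPM) and Dhcr7 (14.2 and 13.4 CPM). Ebp (ENSMUSG00000031168, chromosome X, 8185329 to 8193512), the sterol isomerase gene, had the most UMIs of all 31 members in both libraries. The sterol-feedback gene Insig1 had 10.0 CPM in the old recipient and 7.24 CPM in the young donor (log2 0.47 [0.26, 0.67]), and Stard4, which encodes a cytosolic sterol carrier, had 11.3 and 7.88 CPM (log2 0.52 [0.33, 0.71]).

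Among the fatty acid genes, Acly, which makes cytosolic acetyl-CoA from citrate, was the most abundant at 46.2 CPM in the old recipient and 42.9 CPM in the young donor. Fasn, the fatty acid synthase gene, had 18.7 and 20.2 CPM, and Acaca, the acetyl-CoA carboxylase gene, had 6.84 and 7.39 CPM. The delta-5 desaturase gene Fads1 was the 1 fatty acid gene of 5 past the threshold, at 4.39 CPM in the old recipient and 3.30 CPM in the young donor (log2 0.41 [0.10, 0.72]). Scd2, the stearoyl-CoA desaturase gene that these cells expressed in place of Scd1, had 9.60 and 7.88 CPM (log2 0.29 [0.08, 0.49]). None of the 4 regulators passed the threshold. Srebf2 had 37.6 CPM in the old recipient and 34.2 CPM in the young donor, Srebf1 24.9 and 24.8 CPM, Scap 15.8 and 15.5 CPM, and Insig2 14.7 and 15.2 CPM.

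Cells were then divided by 3 gates within each library. The Gzmk gate held cells with 2 or more UMIs of the granzyme gene Gzmk. The Ly6c2 gate held cells with 2 or more UMIs of the surface antigen gene Ly6c2 and fewer than 2 of Gzmk. Naive-type cells had no Gzmk UMI, fewer than 2 Ly6c2 and fewer than 2 Ccl5 UMIs, and 2 or more UMIs over a short list of naive T cell genes that holds Ccr7 and Lef1. The Gzmk gate held 20.6% of old recipient cells and 15.6% of young donor cells, the Ly6c2 gate 40.3% and 67.3%, and naive-type cells were 29.8% and 11.8%. Median depths were 4619 and 4567.5 UMIs in the Gzmk gate, 8153.5 and 8438 in the Ly6c2 gate, and 7185 and 7544 in naive-type cells. The naive gene list summed to 1625 and 1346 CPM in the Ly6c2 gate, 2439 and 2288 CPM in naive-type cells and 657 and 619 CPM in the Gzmk gate. In the same order the memory list summed to 6929 and 8156, 863 and 841, and 37479 and 33479 CPM. Both lists share genes with the naive-type gate. The Ly6c2 gate is therefore not read as memory cells alone.

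Sterol genes were lower in Ly6c2 gate cells than in naive-type cells of the same library, while the fatty acid genes did not share a direction. The sterol sum was 231 CPM in Ly6c2 gate cells against 324 CPM in naive-type cells of the old recipient (log2 -0.49 [-0.55, -0.42]). In the young donor it was 213 CPM in Ly6c2 gate cells against 343 CPM in naive-type cells (log2 -0.69 [-0.76, -0.62]). In the old recipient 13 of 20 sterol genes were lower past the threshold (median log2 -0.49) and none was higher, against 8.72% of all 10048 genes lower and 16.3% higher. In the young donor 18 of 20 were lower (median log2 -0.73) and none was higher, against 10.7% of all genes lower and 18.8% higher. The 2 exceptions in the young donor were Nsdhl (log2 -0.23 [-0.65, 0.21]) and Pmvk (log2 -0.19 [-0.55, 0.19]).

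Sqle differed most in the young donor, where it had 1.89 CPM in Ly6c2 gate cells against 13.1 CPM in naive-type cells (log2 -2.80 [-3.25, -2.35]). In the old recipient it had 4.28 CPM in Ly6c2 gate cells against 8.54 CPM in naive-type cells (log2 -1.0 [-1.45, -0.55]), and Tm7sf2, a sterol reductase gene, differed most, with 2.14 against 5.29 CPM (log2 -1.31 [-1.93, -0.70]). Fdps had 27.3 against 49.9 CPM in the old recipient and 24.6 against 49.8 CPM in the young donor. Idi1 (log2 -0.99 and -1.16), Insig1 (log2 -0.83 and -1.16) and Hmgcs1 (log2 -0.74 and -0.70) were lower in the Ly6c2 gate as well. Ebp was lower by less, with 50.8 against 57.4 CPM in the old recipient and 47.3 against 60.3 CPM in the young donor.

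The fatty acid sum was 79.7 CPM in Ly6c2 gate cells against 83.9 CPM in naive-type cells of the old recipient, and 79.5 against 67.3 CPM in the young donor. None of the 5 fatty acid genes passed the threshold in the old recipient. In the young donor Fasn (21.6 against 15.1 CPM, log2 0.52 [0.22, 0.83]) and Acaca (8.0 against 5.22 CPM, log2 0.61 [0.11, 1.16]) were higher in the Ly6c2 gate, and Fads1 was lower (log2 -0.41 [-1.05, 0.29]). Of the regulators, Srebf2 had 34.4 CPM in the Ly6c2 gate against 42.8 CPM in naive-type cells of the old recipient (log2 -0.31 [-0.49, -0.14]), and 33.4 against 46.5 CPM in the young donor (log2 -0.48 [-0.66, -0.30]), past the threshold in the young donor alone. Scap was higher past the threshold in the old recipient (17.4 against 13.7 CPM). Srebf1 stood at 24.8 and 24.7 CPM in the Ly6c2 gates, against 24.4 and 25.4 CPM in naive-type cells.

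Gzmk gate cells had a sterol sum near that of naive-type cells, but its make-up differed. The sum was 341 CPM in Gzmk gate cells against 324 CPM in naive-type cells of the old recipient (log2 0.07 [-0.01, 0.15]), and 320 against 343 CPM in the young donor (log2 -0.10 [-0.19, -0.01]). Ribosomal, mitochondrial and receptor segment genes took 31.3% and 33.4% of UMIs in the Gzmk gate against 46.7% and 47.2% in naive-type cells, and the median gene stood 0.32 and 0.30 log2 higher in the Gzmk gate. With totals taken without these families that median moved by -0.37 and -0.34, and the log2 ratio of the sterol sum became -0.29 in the old recipient, a turn in direction, and -0.44 in the young donor. Single genes of the Gzmk gate are therefore also given relative to the median gene, a scale added after the data were seen.

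In Gzmk gate cells of the old recipient 8 of 20 sterol genes were lower and 7 higher past the threshold, against 12.3% of all 9019 genes lower and 49.7% higher. In the young donor 11 were lower and 5 higher, against 12.3% and 47.9%. Relative to the median gene, 10 were lower and 2 higher in the old recipient, against 25% and 23.7% of all genes, and 11 were lower and 1 was higher in the young donor, against 24.5% and 23.5%. On the relative scale Fdps stood at log2 -1.0 and -1.22, Hmgcs1 at -0.95 and -1.17, Idi1 at -1.77 and -1.07, Mvd at -1.45 and -0.96, and Mvk at -1.30 and -1.66. Tm7sf2 had 4 and 9 UMIs in the Gzmk gates, or 0.682 and 1.5 CPM, against 5.29 and 4.77 CPM in naive-type cells. The higher genes on that scale were Dhcr7 (0.66 [0.33, 0.99]) and Sc5d (0.51 [0.20, 0.82]), which act in the last steps, in the old recipient, and Acat2 (0.40 [0.03, 0.77]) in the young donor. In CPM, Dhcr7 had 25.9 in Gzmk gate cells against 13.1 in naive-type cells of the old recipient, and 19.8 against 16.9 in the young donor.

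Srebf2 was lower in the Gzmk gate on the same scale, at -0.66 [-0.91, -0.42] in the old recipient and -1.02 [-1.30, -0.74] in the young donor. Insig2 stood at 0.25 [-0.11, 0.60] in the old recipient and, past the threshold, at 0.53 [0.14, 0.93] in the young donor. Acly had 63.4 CPM in Gzmk gate cells against 46.2 CPM in naive-type cells of the old recipient, and 68.8 against 36.7 CPM in the young donor, which was 0.14 and 0.61 above the median gene's ratio. Fasn stood at -0.52 and -0.26 on that scale, Acaca at -0.66 and -0.32, Scd2 at 0.23 and 0.39, and Fads1 at 0.40 and 0.66. Of the 5 compared fatty acid genes, 1 was higher and 2 were lower past the threshold in the old recipient on the relative scale. Of all genes 23.7% were higher and 25% lower there. In the young donor 3 were higher and none lower, against 23.5% and 24.5% of all genes. On the ratio of levels 3 were higher and 1 lower in the old recipient, against 49.7% and 12.3% of all genes. In the young donor 3 were higher and none lower, against 47.9% and 12.3%. With 5 genes, these counts are not read as a trait of the fatty acid genes. The fatty acid sum was 104 CPM in Gzmk gate cells against 83.9 CPM in naive-type cells of the old recipient (log2 0.31 [0.16, 0.46]), near the median gene's 0.32. In the young donor it was 107 against 67.3 CPM (log2 0.67 [0.50, 0.85]), above the median gene's 0.30. The 11 cell cycle genes, which mark dividing cells, summed to 386 and 238 CPM in the Gzmk gate against 50.8 and 59.7 CPM in naive-type cells, and their part in these ratios was not tested.

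Against Ly6c2 gate cells, the Gzmk gate had a sterol sum of 341 against 231 CPM in the old recipient and 320 against 213 CPM in the young donor, log2 ratios of 0.56 [0.48, 0.64] and 0.59 [0.52, 0.66]. With totals taken without the large gene families these became 0.21 and 0.28. Past the threshold 13 of 20 sterol genes were higher and 3 lower in the old recipient, against 47.1% and 14.7% of all 10068 genes, and 14 were higher and 2 lower in the young donor, against 44.1% and 15.4%. Relative to the median gene, 8 were higher and 4 lower in the old recipient (22.9% and 25.6% of all genes), and 11 were higher and 4 lower in the young donor (22.3% and 25.7%). On the relative scale Sqle (0.65 and 1.53), Dhcr7 (0.94 and 0.49), Sc5d (0.82 and 0.77) and Ebp (0.48 and 0.49) were among the higher genes of both libraries, and Mvd (-1.03 and -0.46), Mvk (-0.59 and -1.22) and Tm7sf2 (-1.94 and -0.99) were lower in both. Fasn (-0.67 and -0.74) and Acaca (-0.62 and -0.89) were lower and Acly (0.38 and 0.53) was higher, so the enzymes of fatty acid synthesis did not share a direction.

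**Figure D1:**
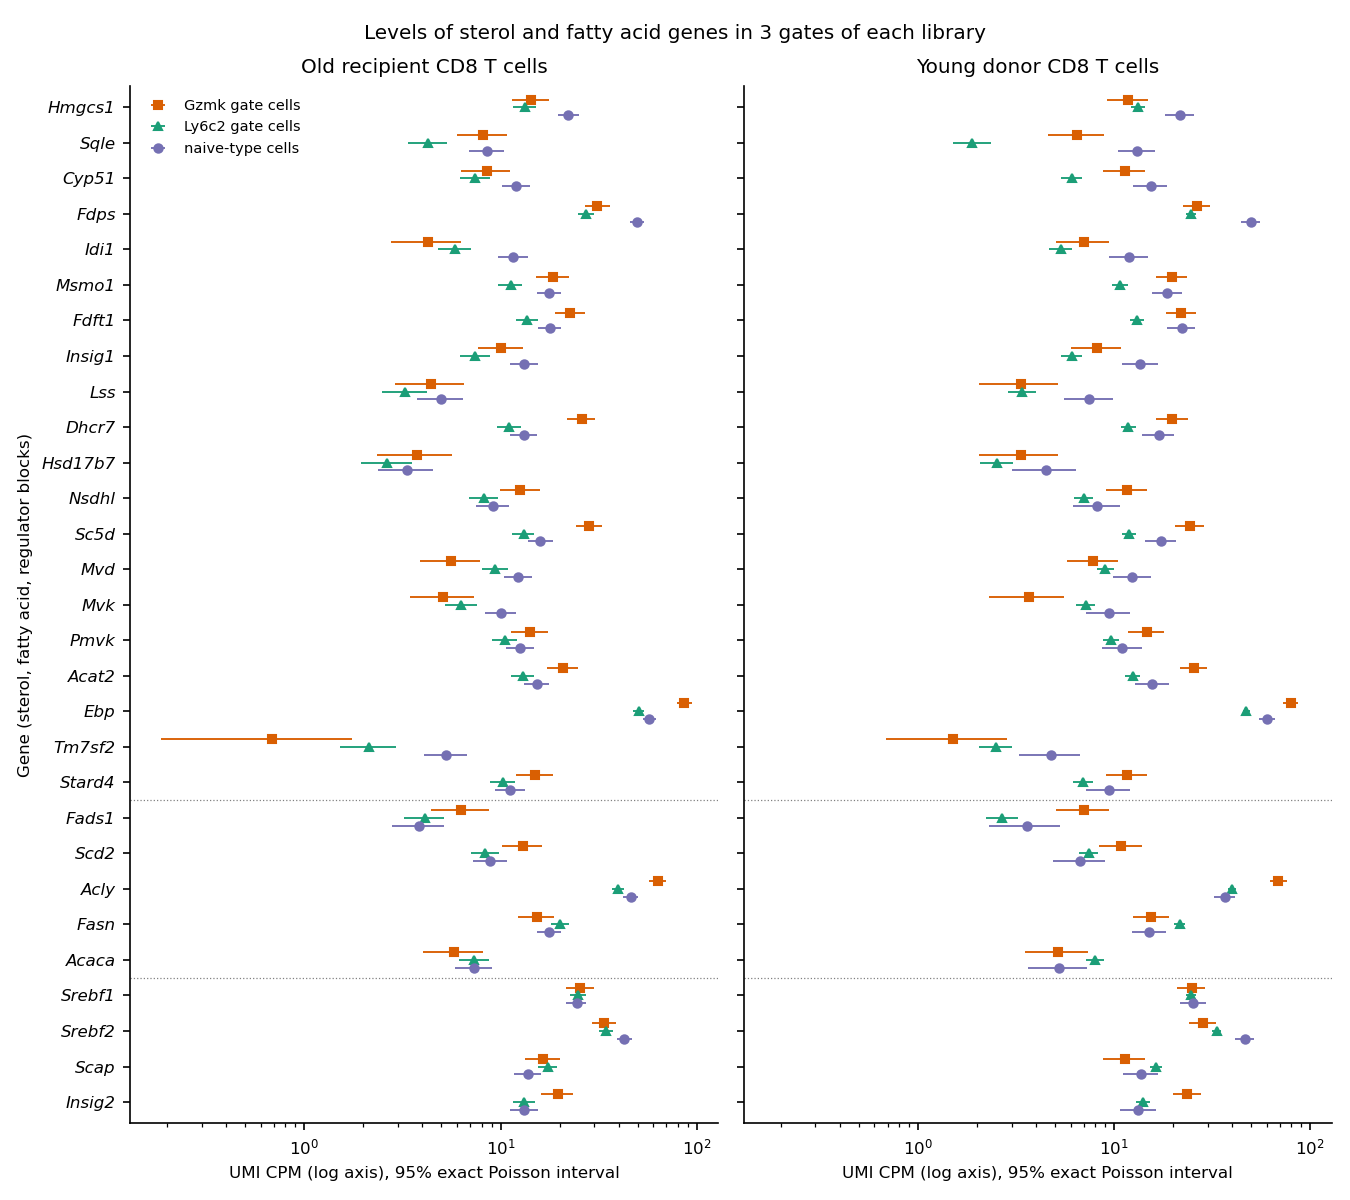
Levels of the 29 compared members in Gzmk gate, Ly6c2 gate and naive-type cells of the old recipient (left) and the young donor (right), in CPM on a log axis with exact Poisson intervals. Sqle, Fdps and Idi1 sit well to the left of naive-type cells in the Ly6c2 gate, Srebf1 shows no such gap, and Tm7sf2 is lowest in the Gzmk gate.

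Within gates, the library difference in sterol genes was smaller than over all cells. The sterol sum gave a log2 ratio of old recipient over young donor of 0.12 [0.07, 0.17] in the Ly6c2 gate, and its interval held 0 in the Gzmk gate (0.09 [-0.001, 0.18]). In naive-type cells the ratio was -0.09 [-0.16, -0.01]. In the cells that fell in no gate (9.32% of old recipient and 5.17% of young donor cells) it was 0.20 [0.05, 0.35], near that over all cells. With the gates of the old recipient weighted as in the young donor, the ratio over all cells was 0.09, against 0.23 unweighted. In the Gzmk gate 13 sterol genes had at least 100 UMIs, and 2 of them were higher past the threshold (Dhcr7 and Stard4) and 1 lower (Cyp51), against 7.84% of all genes higher and 3.9% lower. In the Ly6c2 gate 2 of 20 were higher (Sqle and Stard4) and none lower, against 5.36% and 4.93%. In naive-type cells none of 18 was higher and 4 were lower (Sqle, Lss, Dhcr7 and Cyp51), against 6.52% and 4.81%.

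Sqle went opposite ways in the gates. In Ly6c2 gate cells it had 4.28 CPM in the old recipient against 1.89 CPM in the young donor (log2 1.18 [0.71, 1.65]), and in naive-type cells 8.54 against 13.1 CPM (log2 -0.62 [-1.05, -0.19]). Stard4 in Ly6c2 gate cells had 10.2 CPM in the old recipient against 6.94 CPM in the young donor (log2 0.56 [0.29, 0.83]), and Fads1 there had 4.11 against 2.70 CPM (log2 0.61 [0.17, 1.04]). The NK list stood at 43.8 CPM in the Ly6c2 gate of the old recipient and 2.93 CPM in that of the young donor, with 1 and 0 UMIs of Ncr1, and its part in these ratios was not tested. Among naive-type cells the fatty acid sum was higher in the old recipient (83.9 against 67.3 CPM, log2 0.32 [0.16, 0.48]). Acaca had 7.34 CPM there in the old recipient against 5.22 CPM in the young donor (log2 0.49 [-0.09, 1.10]), Scd2 8.88 against 6.71 CPM (log2 0.40 [-0.11, 0.94]) and Acly 46.2 against 36.7 CPM (log2 0.33 [0.11, 0.55]).

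**Figure D2:**
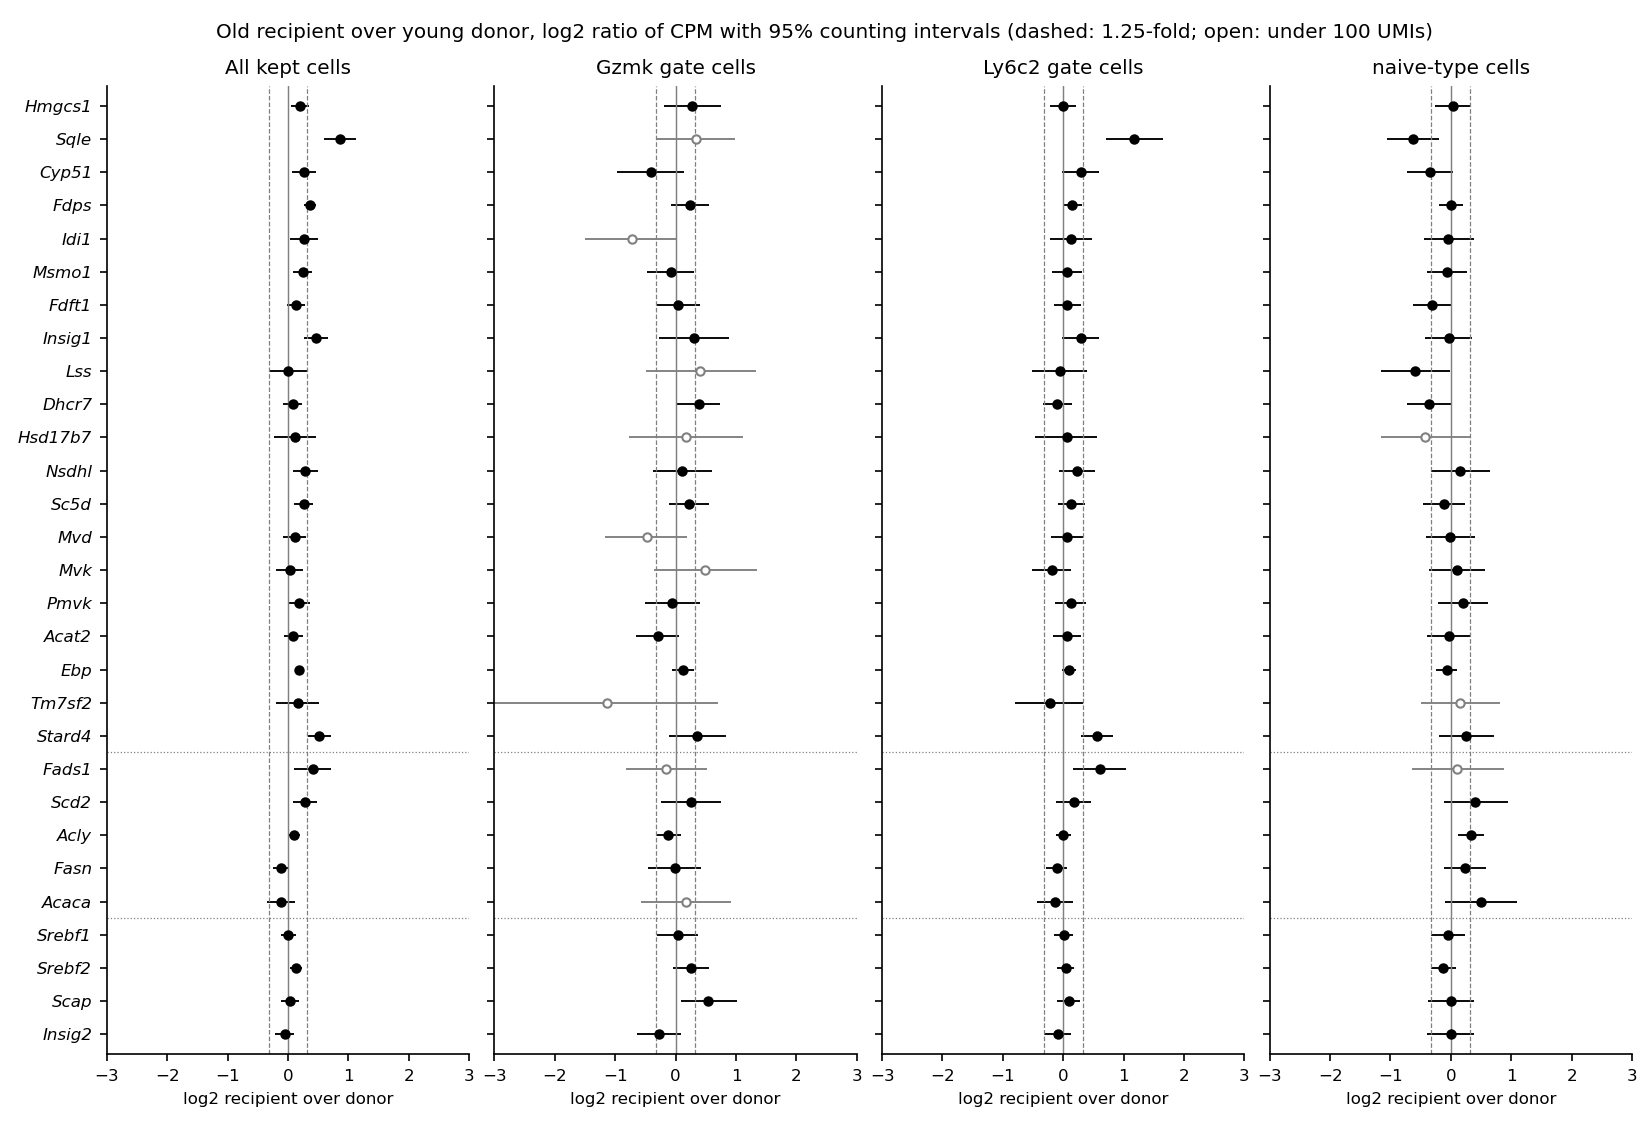
Log2 ratio of old recipient over young donor for each compared member, over all cells and in each gate, with 95% counting intervals. Dashed lines mark log2 ratios of 0.32 either way, and open points have under 100 UMIs in the cells shown. Over all cells the sterol points lie right of 0 with Sqle at 0.86, and in naive-type cells Sqle lies at -0.62.

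Sterol genes varied together from cell to cell in both libraries. To set cells of different depth side by side, each cell with at least 3500 UMIs was thinned to 3500, which left 4869 old recipient and 7031 young donor cells and dropped 9.26% and 6.12% as too shallow, and values were averaged over 20 random draws. A cell then held a mean of 0.994 sterol UMIs in the old recipient and 0.860 in the young donor. The spread over cells was wider than independent genes would give, since the variance of the sum was 1.40 and 1.37 times the sum of the single variances. Cells with 5 or more sterol UMIs numbered 74.7 in the old recipient, against 17.4 for a Poisson count of the same mean, and 77.0 in the young donor, against 13.6. Cells with none were also more common, at 2003 against 1801 in the old recipient and 3245 against 2974 in the young donor.

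**Figure D3:**
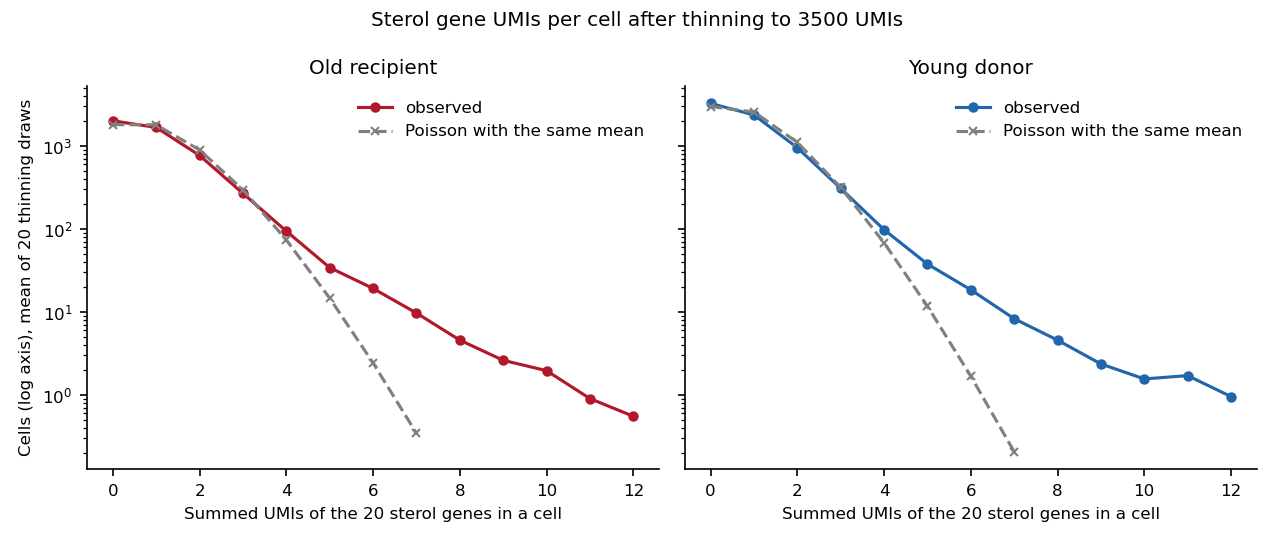
Number of cells (log axis, mean of 20 draws) by the summed UMIs of the 20 sterol genes after thinning to 3500 UMIs, for the old recipient (left) and the young donor (right), beside a Poisson count with the same mean (dashed). The observed curves lie above the Poisson curves at 0 UMIs and from 4 UMIs on.

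For each sterol gene, the at most 10% of cells highest in the other sterol genes, which were the cells with 3 or more of their UMIs, were then set against the remaining cells. The gene was left out of the sum that placed the cells, so that no gene was measured against itself. Past 1.5-fold higher were 18 of 20 sterol genes in each library and none was lower, against 1.89% of all 9369 genes with at least 100 UMIs higher and 1.77% lower in the old recipient, and 2.32% and 1.94% in the young donor, where genes outside the list were set against the full sum. In single draws the counts ran between 15 and 19 in the old recipient and between 15 and 18 in the young donor. The 20 members were chosen as one pathway, so their shared count describes these cells and is no test.

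The steepest members were Sqle, Idi1, Cyp51 and Fdps in both libraries. Sqle had 8.87 UMIs per 100 high cells against 1.78 per 100 other cells in the old recipient (4.97-fold, log2 2.31 [1.71, 2.90]), and 6.81 against 0.970 in the young donor (7.02-fold, log2 2.81 [2.15, 3.45]). Idi1 was 4.64-fold and 5.14-fold higher, and Cyp51 3.86-fold and 5.10-fold. Fdps had 33.8 UMIs per 100 high cells against 10.8 in other cells of the old recipient, and 30.4 against 8.63 in the young donor. Hmgcs1 (2.75-fold and 2.97-fold), Msmo1 (2.68-fold and 3.22-fold), Insig1 (2.79-fold and 2.81-fold), Fdft1 (2.25-fold and 2.87-fold) and Mvd (2.57-fold and 2.34-fold) followed. These 9 genes passed 1.5-fold in every draw of both libraries.

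Ebp stood apart from them. It had 25.2 UMIs per 100 high cells against 21.2 in other cells of the old recipient (1.19-fold, log2 0.25 [-0.11, 0.59]), and 22.4 against 18.7 in the young donor (1.20-fold, log2 0.26 [-0.11, 0.61]), and passed 1.5-fold in no draw. The most abundant sterol gene thus had 1 of the 2 lowest ratios in the old recipient and the lowest in the young donor, and its promoter window, shown above, holds 2 CCAAT sites. Pmvk (1.54-fold and 1.48-fold) lay at the threshold, and Tm7sf2 (1.16-fold and 1.90-fold) rested on 4.95 and 7.65 UMIs in high cells. Lss, which acts between Sqle and Cyp51, was 1.83-fold higher in the old recipient (log2 0.87 [-0.32, 1.90]) and 2.77-fold higher in the young donor (log2 1.47 [0.61, 2.24]).

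Most fatty acid genes and regulators followed the sterol sum weakly, while Fads1 and Srebf2 passed 1.5-fold in the young donor. Acly was 1.18-fold and 1.19-fold higher in high cells, Fasn 1.26-fold and 1.09-fold, Acaca 1.01-fold and 1.05-fold and Scd2 1.18-fold and 1.12-fold, and all their intervals included no difference. Fads1 was 1.47-fold and 1.83-fold higher on 9.60 UMIs in the high cells of each library, with intervals that included no difference too. The same holds for some sterol genes counted above as past 1.5-fold. They were Lss and Pmvk in the old recipient and Hsd17b7, Nsdhl and Tm7sf2 in the young donor. Srebf2 was the exception among the regulators. It had 17.8 UMIs per 100 high cells against 13.0 in other cells of the old recipient (1.37-fold, log2 0.45 [0.09, 0.80]). In the young donor it had 18.5 against 11.6 (1.59-fold, log2 0.67 [0.33, 0.98]). Srebf1 (1.08-fold and 1.20-fold), Scap (1.10-fold and 0.842-fold) and Insig2 (0.906-fold and 1.15-fold) showed no shared direction past their intervals.

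**Figure D4:**
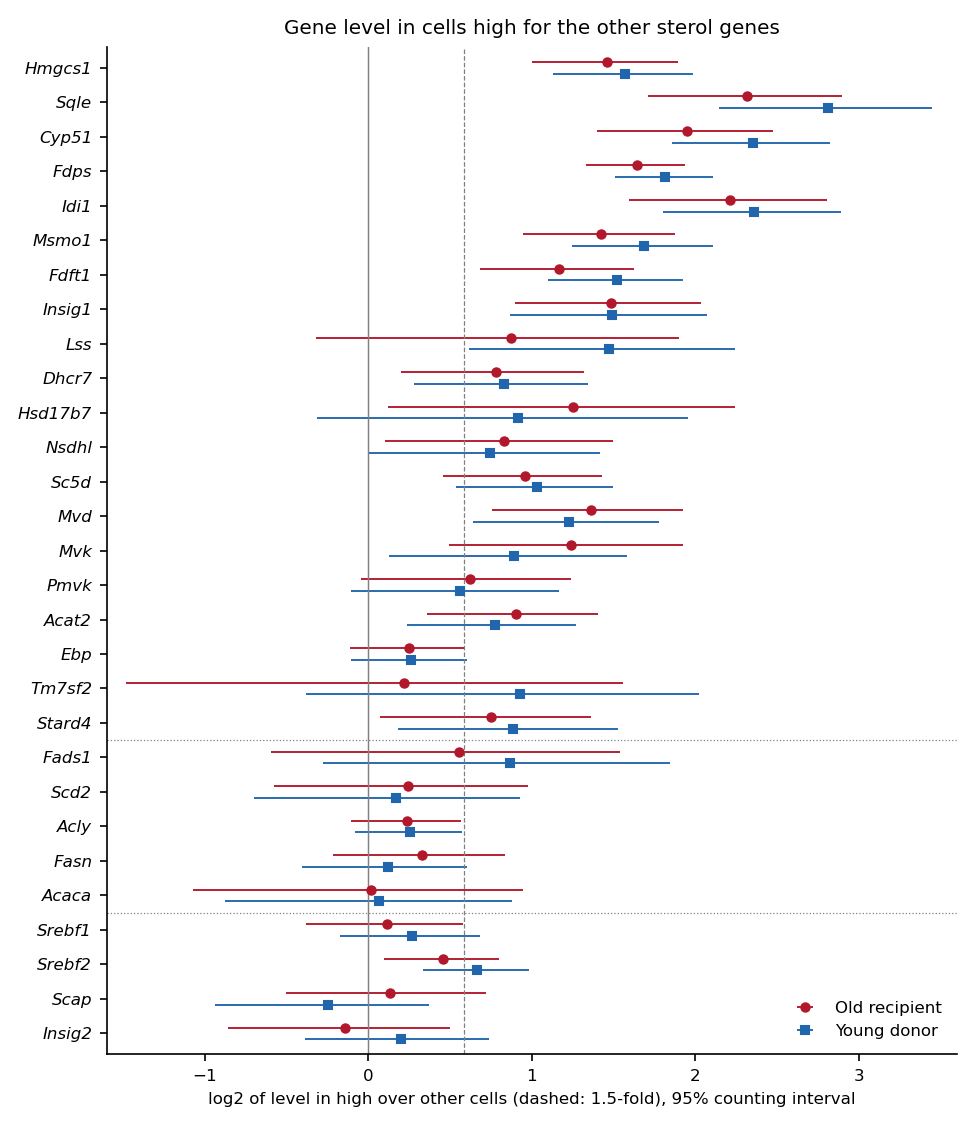
Log2 ratio of each compared member in cells with 3 or more UMIs of the other sterol genes over the remaining cells, after thinning, with 95% counting intervals, for the old recipient (circles) and the young donor (squares). The dashed line marks 1.5-fold. Sqle, Idi1 and Cyp51 lie furthest right, and Ebp, Acly, Fasn and Srebf1 lie near 0.

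The relation was graded over the cells. In the old recipient Sqle had 1.28 UMIs per 100 cells where the other sterol genes had none and 14.3 where they had 4 or more, and in the young donor 0.632 and 11.5. At the same ends of the range, Cyp51 had 2.10 and 16.5 UMIs per 100 cells in the old recipient, and 1.80 and 19.3 in the young donor. Ebp had 20.4 and 26.8 in the old recipient, and 18 and 23.3 in the young donor. Pairs of genes showed the same, since cells with both Fdps and Msmo1 numbered 44.8 in the old recipient where independence would give 27.6, and 49.8 in the young donor where it would give 26.8. Over all 190 sterol pairs this ratio was 1.34 and 1.36, and 169 and 170 pairs were above 1. Sterol genes paired with fatty acid genes gave 1.09 and 1.05, with regulators 1.04 and 1.09, and with all other genes 1.01 and 1.02.

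**Figure D5:**
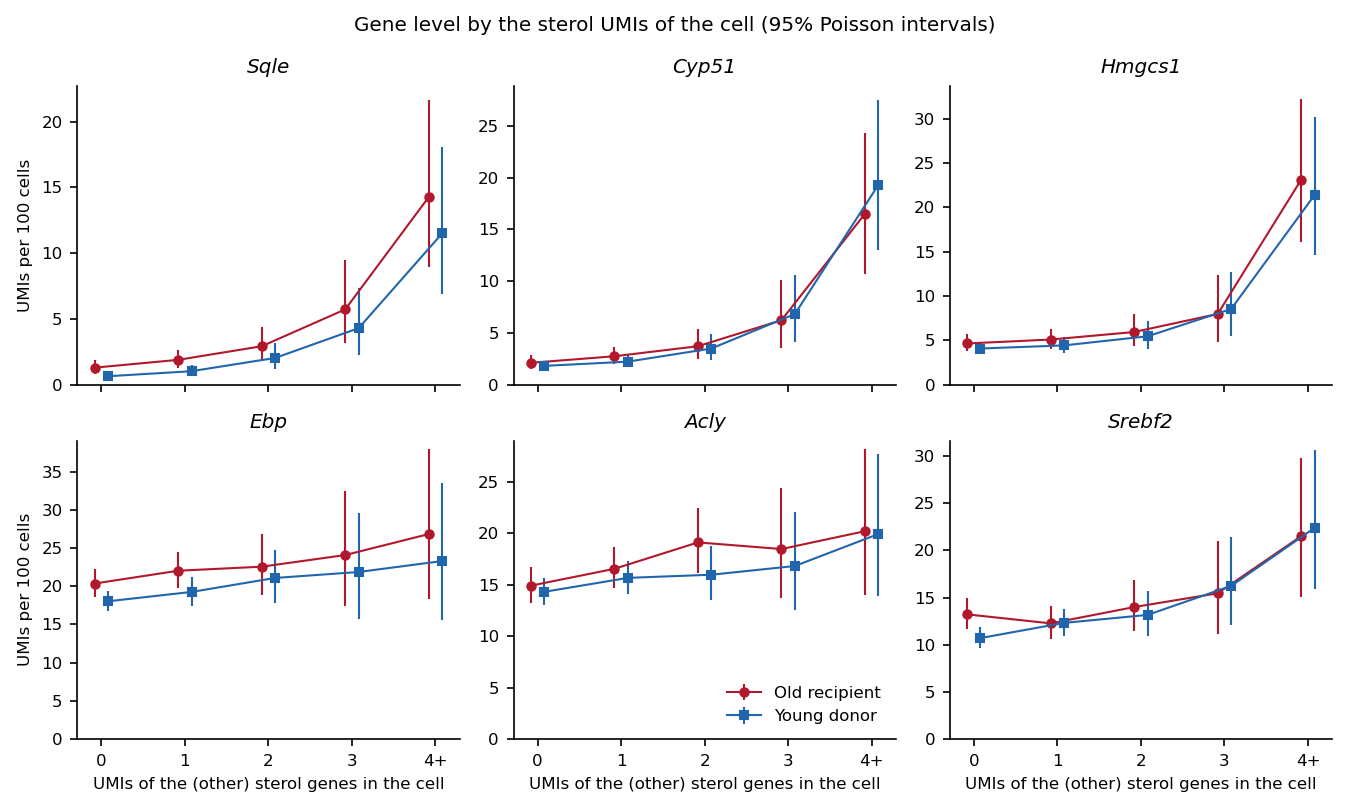
UMIs per 100 cells of 6 members by the number of UMIs of the other sterol genes in the cell (4+ holds cells with 4 or more), with Poisson intervals, for the old recipient (circles) and the young donor (squares). Sqle, Cyp51 and Hmgcs1 climb steeply, Ebp and Acly change little, and Srebf2 climbs mainly at 4 or more.

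High cells were found in every gate. Cells deep enough to be thinned were 901 of 1107 in the Gzmk gate of the old recipient and 935 of 1172 in that of the young donor, 2051 of 2162 and 4950 of 5043 in the Ly6c2 gate, and 1545 of 1597 and 869 of 887 among naive-type cells, so the shares leave out more of the Gzmk gate than of the others. In the Gzmk gate 10.6% (8.66 to 12.8) of old recipient cells and 10.4% (8.56 to 12.6) of young donor cells were high, in the Ly6c2 gate 5.60% (4.64 to 6.68) and 4.96% (4.37 to 5.60), and among naive-type cells 11.8% (10.2 to 13.5) and 13.2% (11 to 15.7). Within naive-type cells alone, 10 of the 11 sterol genes with at least 100 UMIs passed 1.5-fold in each library, against 3.69% and 5.65% of all genes, and Ebp did not (1.08-fold and 1.01-fold). Of these 11, Fdps was 3.51-fold and 5.63-fold higher there and Cyp51 6.22-fold and 6.91-fold. Sqle (7.48-fold and 7.37-fold) and Idi1 (6.60-fold and 8.92-fold) had under 100 UMIs over both libraries there and are not among the 11. The cutoff for high cells was set anew within naive-type cells, so these ratios are not set beside those over all cells. Before thinning, high cells had a median of 7137 UMIs against 7289 in other cells of the old recipient, and 7566 against 8009 in the young donor.

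Cell cycle genes moved with the sterol sum. Past 1.5-fold were 9 of 10 in the old recipient and 5 of 10 in the young donor, against 1.89% and 2.32% of all genes. Cells with 2 or more cell cycle UMIs were 4.34% of high cells against 2.17% of other cells in the old recipient, and 3.27% against 2.27% in the young donor. With such cells left out, 18 sterol genes passed in each library, against 1.41% and 2.08% of all genes. The part of cell division in these ratios was not tested.

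Other genes of lipid handling were described by lists. Of all genes, 1.89% and 2.32% were higher past 1.5-fold in the old recipient and the young donor, and 1.77% and 1.94% lower. Of 9 further SREBP-linked genes with enough UMIs, 3 passed 1.5-fold in each library. Tmem97, which encodes a sterol-binding membrane protein, was 2.05-fold and 2.23-fold higher in high cells, and Aacs, the acetoacetyl-CoA synthetase gene, 1.87-fold and 1.77-fold, both named after their values were seen. Of 10 efflux and storage genes none was higher, while 2 were lower past 1.5-fold in the old recipient and 1 in the young donor. These, named for that reason, were the cholesterol exporter genes Abca1 (log2 -1.6 [-4.08, 0.07] in the old recipient and -1.0 [-2.84, 0.37] in the young donor) and, in the old recipient, Abcg1 (log2 -0.74 [-1.43, -0.13], and -0.57 [-1.16, -0.03] in the young donor), and the intervals of Abca1 included no difference. None of 7 SREBP processing genes and none of 10 fatty acid oxidation genes passed in either library, and of 10 prenylation genes none passed in the old recipient and 1 in the young donor. None of 9 amino acid response genes passed in either library. Of 8 activation genes, none was higher and 1 lower in the old recipient, and 4 were higher and 1 lower in the young donor. Of the 6 marker genes of Gzmk cells, 1 passed in the old recipient and 4 in the young donor, and of 6 naive genes none passed in the old recipient and 1 in the young donor. None of 6 memory genes passed in either library, and of 2 NK genes 2 were lower in the old recipient and 1 in the young donor.

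Among genes that are not members, those most like the sterol genes were ranked by their ratio in high over other cells, taking the lower of the 2 libraries, over 5928 genes with at least 200 UMIs in each library after thinning. The inhibitory receptor genes Klrg1 (1.88-fold and 1.62-fold), Lag3 (1.53-fold and 1.88-fold) and Tigit (1.43-fold and 1.98-fold) ranked high, as did the chemokine receptor gene Cx3cr1 (1.44-fold and 2.18-fold) and Capg, an actin-capping gene (1.60-fold and 2.09-fold). Pcyt2, which makes an intermediate of phosphatidylethanolamine, was 1.44-fold and 1.51-fold higher. The centromere gene Cenpa (1.5-fold and 1.47-fold), the noncoding RNA Lockd (1.60-fold and 1.53-fold) and the histone gene Hist1h2ap (2.34-fold and 1.53-fold) also ranked high. Hist1h2ap has near-identical copies that share reads, so its value is uncertain. The ratios of these genes were smaller than those of Sqle, Idi1, Cyp51 and Fdps in both libraries. They overlapped those of other sterol genes, such as Fdft1 (2.25-fold) in the old recipient and Sc5d (2.04-fold) in the young donor. The interval of Cx3cr1 in the old recipient included no difference (log2 0.52 [-0.001, 1.01]).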

How the data were processed

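Per-gene UMI counts of each barcode were taken as the authors deposited them, with no normalization. The submitters' processing notes name Cell Ranger, Seurat and mm10, and the file headers give software version 3.0.2. The rules for calling cells were not given in the sources used here. Features with the same symbol were added together, and GENCODE M21 (GRCm38) placed all 31 members by ID.

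Barcodes needed at least 500 genes and at most 10% mitochondrial UMIs, which removed 555 in the old recipient and 587 in the young donor. Each cell was scored by its simulated doublets (2 per cell) among 30 neighbours on 1500 genes, and the top-scoring 253 and 512 cells were dropped (4.50% and 6.40%). Kept cells held 38011270 and 58152487 UMIs. CPM intervals are exact Poisson, ratio intervals exact for 2 Poisson sums, and intervals on shares of cells exact binomial, each at 95% and for counting error only, since the UMIs of 1 library are not independent replicates. With 1 library per group no test was made. Genes were counted past a log2 ratio of 0.32 between libraries or gates and past 1.5-fold between high and other cells. They needed at least 100 UMIs in the cells compared, summed over both libraries. A ratio within 1 library can therefore rest on fewer. Python 3.11.15, numpy 2.4.6, scipy 1.17.1, scikit-learn 1.9.0 and matplotlib 3.10.9 were used, and the procedure was tested on simulated data.

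Named genes were all 31 members and the 10 other genes, leaving out ribosomal, mitochondrial, receptor segment and unnamed gene models, with the largest ratio in high over other cells by the lower of both libraries. The values of 1 gene that met this last rule are not reported here. Members and lists were chosen with earlier results of these data known, and averaging 20 thinning draws and the scale relative to the median gene were chosen after seeing the data. Receptor libraries were not used here.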

Additional observations from a re-analysis of the deposited data

Results flagged for a closer look

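Sqle and Dhcr7 passed the threshold in opposite directions in different gates when the libraries were compared. For Sqle the log2 ratio of old recipient over young donor was 1.18 in the Ly6c2 gate and -0.62 in naive-type cells, from 76 and 100 UMIs in the old recipient and 82 and 88 UMIs in the young donor. For Dhcr7 it was 0.38 [0.03, 0.74] in the Gzmk gate and -0.36 [-0.72, 0.00] in naive-type cells. Idi1 passed it in opposite directions in the 2 libraries when gates were compared, with a log2 ratio of Gzmk gate over Ly6c2 gate of -0.46 [-1.15, 0.18] in the old recipient and 0.39 [-0.12, 0.87] in the young donor, from 25 and 42 UMIs in the Gzmk gates. None of these 3 differences was tested, and both intervals of Idi1 included no difference.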

How the results depend on the processing

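Sums are log2 ratios of the summed sterol genes, and counts are of sterol genes. Over all cells old recipient over young donor was 0.18 with TMM scaling and 0.087 with gates weighted as in the young donor, against 0.23, and the 4 higher genes became 1 past 1.5-fold and 2 with weighted gates. With totals taken without ribosomal, mitochondrial and receptor segment genes, Gzmk gate over naive-type became -0.29 in the old recipient (2 genes higher, against 7) and -0.44 in the young donor (1 higher, against 5), Gzmk gate over Ly6c2 gate became 0.21 (7 higher, against 13) and 0.28 (5 lower, against 2), and Fdft1 turned to -0.021 in the Gzmk gate over naive-type cells of the old recipient. Counting relative to the median gene gave 2 and 1 higher for Gzmk gate over naive-type, and for Gzmk gate over Ly6c2 gate 8 higher in the old recipient and 4 lower in the young donor. Past 1.5-fold, Gzmk gate over naive-type had 3 and 1 genes higher, Ly6c2 gate over naive-type 11 lower in the young donor (against 18), and Gzmk gate over Ly6c2 gate 8 higher in the old recipient. For the library and gate counts past 1.5-fold and those without the large families, no share of all genes was taken. Their change is therefore not set against that of all genes. With gates set on thinned counts, Gzmk gate over naive-type was -0.0052 in the young donor and Gzmk gate over Ly6c2 gate 0.66 and 0.68. With 2 or more Ccl5 UMIs also asked of the Ly6c2 gate, Ly6c2 gate over naive-type was -0.58 and -0.80, and Gzmk gate over Ly6c2 gate 0.66 and 0.70 with 1 gene lower in each library. In high cells 10 genes were higher in each library within naive-type cells, where 11 had enough UMIs, and 11 past 2-fold, against 18. Past 2-fold were 0.438% of all genes in the old recipient and 0.512% in the young donor. With at most 20% of cells taken as high, 12 genes were higher in the young donor, against 1.81% of all genes. In the old recipient the whole-number cutoff on the full sum stayed at 3 UMIs. The share of all genes there was the same 1.89%, so its unchanged 18 genes are hardly a check of this setting. The share of all genes higher in high cells of the old recipient was 4.06% with high cells at most 5% of cells and 5.22% with a minimum of 20 UMIs, against 1.89%. Each of the other 222 summary values, the 12 genes of the young donor included, stayed within its counting interval or within 1.5 times. Of single-gene values, 2008 stayed in their counting intervals, 107 moved and 1 turned. The interval of the Gzmk gate library ratio lay above 0 with no doublets removed (0.13 [0.05, 0.22]). Gate weighting, the relative scale, single thinning draws and leaving out the 105 shared barcodes were added after the data were seen. The last was run for library ratios and high cells, and moved no summary value past these limits, though it set the Gzmk gate interval just above 0 (0.0953 [0.0038, 0.187]), as did a higher minimum of genes per cell. The causes were not tested. No paired analysis was possible because each group is 1 library and no test was made. Low counts limit Tm7sf2, Hsd17b7, Lss and Fads1 most, and Fads2 and Scd1 could not be compared.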
